A study of Rattus norvegicus with 2 samples.

Results

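Vascular endothelial cells were taken from single-cell RNA-sequencing libraries of Lewis rat cartilage. The cells were chosen by measured values of 4 genes, so those values are given as a description only. The rule required at least 5 UMIs (unique molecular identifiers, each marking 1 captured RNA molecule) summed over the endothelial genes Emcn, Plvap and Cdh5. It also required less than 20000 CPM (a gene's UMIs scaled to the same total in every cell or sum of cells, as the usual counts-per-million unit) of the myeloid lysozyme gene Lyz2. It found 1247 of the 13758 kept cells, 557 of 8409 in the CIA library and 690 of 5349 in the control library. The CIA library was made from Lewis rats treated with type II collagen plus complete Freund's adjuvant, the collagen-induced arthritis model, with tissue collected on day 14. The control library was made from Lewis rats without treatment, which the series also calls sham. There was 1 library per group, and how many rats, which joints and which pieces of the joint went into each is not given in the sources used here. No difference below therefore has a replicate check, no test was run, and every 95% interval covers counting error only.

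Endothelial cells form the inner wall of blood vessels. Arteries, capillaries and veins carry different endothelial cells: arterial cells use connexins and Notch signalling, capillary cells exchange lipids and solutes with the tissue, and venules display selectins on which leukocytes roll before they leave the blood. Vessels of the synovium and bone supply the joint, whereas adult articular cartilage itself has none, and in arthritis new vessels grow and leukocytes enter the joint across venules.

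The members made up 6.62% of kept CIA cells (exact binomial 95% interval 6.10 to 7.18%) and 12.9% of kept control cells (12.01 to 13.8%). They carried 6593869 UMIs in the CIA library and 10338073 UMIs in the control library, with a median per cell of 8909 UMIs and 2711 genes against 11461 UMIs and 3074.5 genes. The median mitochondrial share was 7.07% in CIA members and 7.88% in control members, against 5.34% and 5.61% in the other kept cells of those libraries. The libraries shared 52 cell barcodes, and 0 of these belonged to members. Kept cells had at most 20% mitochondrial UMIs and were not called doublets, which removed 4 and 23 cells that met the rule in the CIA library, and 7 and 19 in the control library.

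The marker sum that chose the members had a median of 31 UMIs in CIA members and 34 UMIs in control members, far from the limit for most cells. Just inside the limit, 8 CIA and 10 control cells had a sum of 5, and of these 6 and 6 had a UMI of Kdr or Sox18, which the rule did not use. Just outside, 8 CIA and 22 control cells had a sum of 4, and 2 and 7 of these had such a UMI. A further 18 CIA and 14 control cells had the marker sum but too much Lyz2.

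Genes that the rule did not use bore out the name. Kdr, the main receptor for VEGF, had a UMI in 88.5% of CIA and 84.1% of control members. In Lyz2-high cells, with a median of 9823 and 12703.5 UMIs, it had one in 2.06% and 4.77%. Those cells were limited to fewer than 5 UMIs of the rule's 3 endothelial genes, so their share is a description only. The summed level of Kdr was 379 CPM in CIA and 262 CPM in control members, and 2.08 and 3.65 CPM in all other kept cells. Sox18, an endothelial transcription factor, stood at 467 CPM in CIA and 471 CPM in control members, against 2.64 and 5.86 CPM elsewhere. Of the 24 genes of a pan-endothelial list, 22 were found in both libraries and all 22 were higher in the members than in the other cells of each library, as the plot of marker levels shows. Pecam1 and Robo4 were not analysed here. Of the lymphatic list, 3 genes had enough UMIs to be measured: Lyve1 had 404 UMIs in CIA and 500 in control members, Flt4 260 and 250, and Pdpn 251 and 299, and none passed the size rule given below. Prox1, the defining lymphatic transcription factor, had 13 UMIs in CIA members, 92.3% of them in 1 cell, and 4 in control members. Of the sinusoidal list, Il6st (2236 and 3861 UMIs) and Mrc1 (51 and 71) were measured, and the defining gene Stab2 had 1 and 1.

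**Figure D1:**
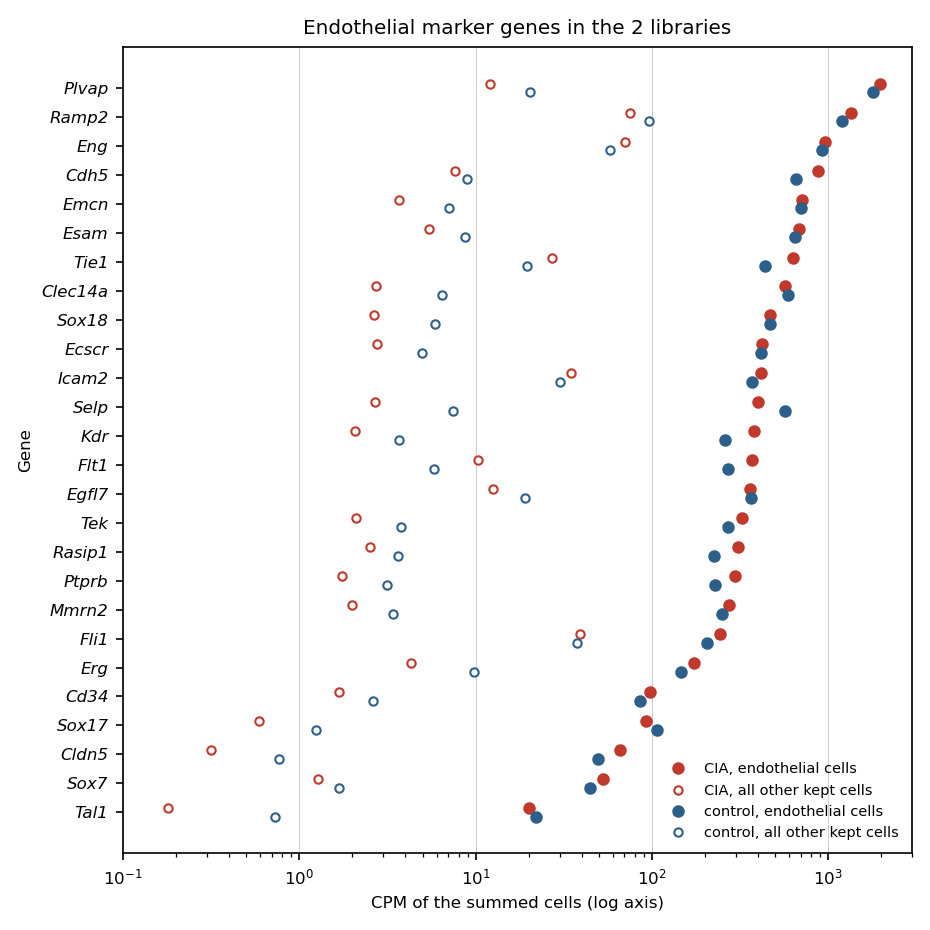
Summed level (CPM, log axis) of the pan-endothelial and chosen marker genes in the endothelial cells (filled) and in all other kept cells (open) of the CIA library (red) and the control library (blue). Every gene lies further right in the endothelial cells, such as Kdr at 379 and 262 CPM against 2.08 and 3.65 CPM.

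Of the genes used by the rule, Plvap, which builds the diaphragms of fenestrae and caveolae, had 1980 CPM in CIA and 1798 CPM in control members. Emcn, a sialomucin of venous and capillary cells, had 711 and 702 CPM, and Cdh5, the cadherin of endothelial junctions, had 876 and 660 CPM. In single members the middle 50% of Emcn levels ran over 396 to 918 CPM in CIA and 398 to 917 CPM in control cells. For Cdh5 the middle 50% was 540 to 1176 CPM in CIA and 392.3 to 927 CPM in control cells.

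Subsets were read from genes outside the rule, after each member had been thinned to 5000 UMIs so that depth was equal. 57 CIA and 0 control members were too shallow for this. Venous cells, with at least 2 UMIs of the leukocyte-rolling receptor P-selectin (Selp), were 23.6% of CIA members (118 of 500 cells, interval 19.9 to 27.6%) and 35.4% of control members (244 of 690 cells, 31.8 to 39.1%). Arterial cells, with at least 3 UMIs over the 5 genes Gja4, Gja5, Sema3g, Hey1 and Bmx, were 18.8% of CIA members (94 of 500 cells, 15.5 to 22.5%) and 12.03% of control members (9.70 to 14.7%). Neither pair of intervals overlapped, but without the cluster 6 described below the arterial shares were 18.9% (15.6 to 22.6%) and 13.9% (11.1 to 17.1%), whose intervals did, while the venous shares of 23.5% and 34.5% stayed apart. Cycling cells, with at least 5 UMIs over 7 mitotic genes such as Mki67 and Top2a, were 12% of CIA members (60 of 500 cells, 9.28 to 15.2%) and 10.7% of control members (8.52 to 13.3%), with overlapping intervals.

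These shares are ranges of a UMI count rather than cell types. Among CIA members, 52 thinned cells lay 1 UMI below the venous limit and 26 at it, and among control members 94 and 57. Without thinning, the shares were 29.8% venous, 27.5% arterial and 16.0% cycling among CIA members, and 47.7%, 16.5% and 16.5% among control members, so the venous share stayed smaller and the arterial share larger in the CIA library. In the other kept cells, thinned alike, venous counts reached 0.0801% in the CIA and 0.1502% in the control library and arterial counts 0.0801% and 0.0644%, which is the background of these limits. Cycling counts reached 9.76% and 8.89% there. Unthinned, 5 CIA and 6 control cells were both venous and arterial, while 29 and 55 were venous and cycling, and 25 and 22 arterial and cycling.

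**Figure D2:**
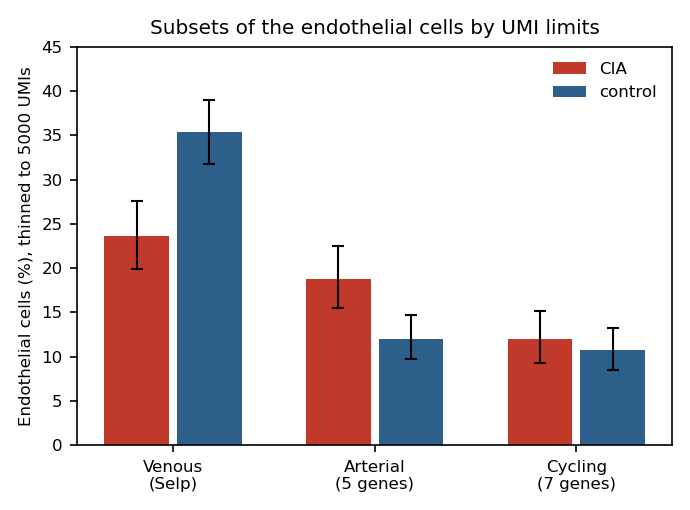
Share of endothelial cells (%) that passed each UMI limit after thinning to 5000 UMIs, for the CIA (red) and control (blue) library; error bars are exact binomial 95% intervals over cells of 1 library each. The venous share is 23.6% in CIA and 35.4% in control, the arterial share 18.8% and 12.03%, and the cycling shares overlap.

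Genes beyond Selp marked the venous cells, here counted without thinning. Sele, the selectin E that is displayed on activated venules, had 647 CPM in venous and 42.7 CPM in other members of the CIA library, and 603 and 64.0 CPM in those of the control library. Madcam1, an addressin that binds leukocyte integrins, had 22.1 CPM against 1.14 CPM in CIA and 24.9 CPM against 1.94 CPM in control. Both were 9.43-fold to 19.3-fold higher in the venous than in the other members of each library. Von Willebrand factor (Vwf), the platelet-binding glycoprotein, was 3.51-fold and 2.98-fold higher in venous cells, and the venous transcription factor Nr2f2 2.99-fold and 1.87-fold.

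Within the venous cells, the selectin genes and Vwf had ratios near 1. Selp, which the venous limit used, had 1157 CPM in CIA and 1023 CPM in control venous cells, a ratio of 1.13 (interval 1.08 to 1.19). Sele had a ratio of 1.07 (1.01 to 1.14) and Vwf one of 1.07 (0.998 to 1.15). Over all members, Selp had 399 CPM in CIA and 571 CPM in control, a ratio of 0.698 (0.666 to 0.731), and Sele 246 and 361 CPM, a ratio of 0.682. The 8 measured genes of the venous list did not all follow: 5 had a ratio below 1, and the median log2 ratio was −0.05. Because the venous limit counts Selp, the Selp level within venous cells is a description only. Sele and Vwf were themselves higher in the cells chosen on Selp, so their ratios there are a description too. The limit was applied here without thinning, at a median of 8909 UMIs per CIA member and 11461 UMIs per control member. Of 6775 genes measured in venous cells, 13 were higher and 110 lower in CIA by the size rule given below. Over all members, 29 (0.33%) of 8784 measured genes were higher and 148 (1.68%) lower.

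Arterial cells were led by Wfdc1, Cldn5, Unc5b, Egfl8 and Cxcl12. Cxcl12, a chemokine that arterial cells secrete, had 765 CPM in arterial and 85.9 CPM in other members of the CIA library, and 572 and 47.3 CPM in those of the control library. Claudin 5 (Cldn5), a tight-junction protein, had 186 CPM against 14.1 CPM in CIA and 223 CPM against 8.26 CPM in control. The Notch ligand Dll4 had 116 CPM against 40.9 CPM and 138 CPM against 29.0 CPM. Of the venous genes, Selp in arterial cells reached 27.1 CPM in CIA and 51.3 CPM in control, and Madcam1 had 0 UMIs there in both. Over all members, Gja4, the connexin 37 gene that the arterial limit used, had 297 CPM in CIA and 167 CPM in control (ratio 1.78, 1.67 to 1.90), and Cxcl12 had 291 and 148 CPM (ratio 1.96, 1.84 to 2.10). Neither reached the 2-fold size rule given below.

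Leiden clustering of the members of both libraries gave 8 clusters without the UMI limits. Cluster 4, with 83 CIA and 173 control cells, was venous-like, with 1406 CPM of Selp, 806 CPM of Sele and 768 CPM of Vwf. Cluster 5, with 84 and 59 cells, was arterial-like, with 1346 CPM of Gja4, 228 CPM of Gja5 and 1387 CPM of Cxcl12, whereas cluster 4 had 20.8, 0.320 and 19.9 CPM of these. Cluster 2, with 76 and 67 cells, held capillary and tip-cell genes together: 400 CPM of Gpihbp1, 58.5 CPM of the transcription factor Tcf15, 150 CPM of the tip-cell ligand apelin (Apln) and 138 CPM of Cxcr4, the receptor for Cxcl12. Its Selp level was 17.7 CPM. Cluster 3, with 83 and 91 cells, was the cycling one, at 417 CPM of Mki67.

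The other clusters had no vessel-segment name. Cluster 1, with 186 CIA and 99 control cells, was led by Dpp4, Igfbp2, Lrrn3 and the apelin receptor Aplnr at folds of at most 2.50. Cluster 6 held 3 CIA and 145 control cells, nearly 1 library, and was led by stress and immediate-early genes such as Atf3, Dnajb1, Egr1, Zfp36 and Ier3, at a median of 15765 UMIs per cell. Cluster 0, with 23 and 39 cells, carried RNA of other joint cells: Col1a1 was at 18548 CPM there, against 1035 to 1295 CPM in the other clusters, and Chad and Snorc of cartilage led it. Cluster 7, with 19 and 17 cells, carried the macrophage genes C1qa, C1qb and C1qc and the neutrophil genes S100a8 and S100a9. Without clusters 0 and 7, a setting chosen after the data were seen, the members were 6.12% of CIA and 11.9% of control cells.

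**Figure D3:**
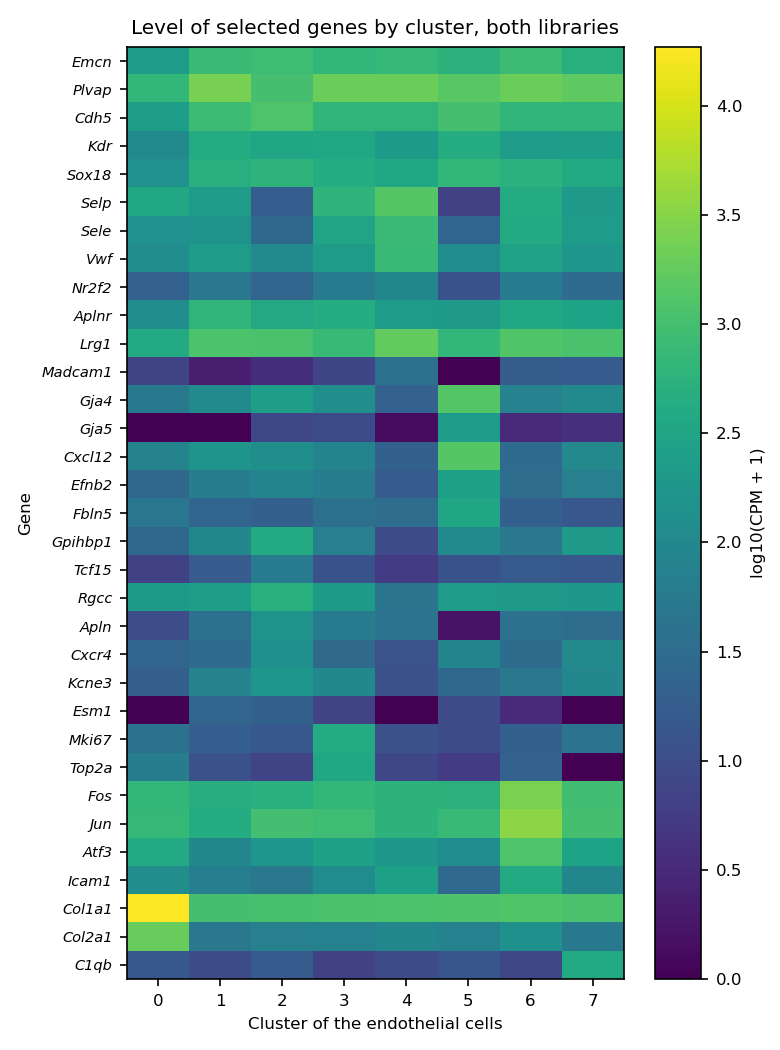
Level of selected genes (colour, log10 of CPM plus 1) in the 8 clusters of endothelial cells, CIA and control cells summed. Selp, Sele and Vwf are brightest in cluster 4, Gja4, Gja5 and Cxcl12 in cluster 5, Gpihbp1 and Apln in cluster 2, Mki67 and Top2a in cluster 3, Atf3 in cluster 6, Col1a1 in cluster 0 and C1qb in cluster 7.

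To compare the libraries, UMIs were summed over the members and scaled to CPM over the genes listed for both. A gene was called higher or lower where its ratio of CIA to control was at least 2-fold with an interval wholly beyond 1.5-fold. Of 8784 genes with at least 100 UMIs, 29 were higher (0.33%) and 148 lower (1.68%) in CIA members. In all other kept cells 90 genes were higher (0.717%) and 515 lower (4.1%). Of the 148 genes lower in endothelial cells, 91 were lower by the same rule in the other cells and 139 had a ratio below 1 there. Of the 29 higher genes, 3 were also higher in the other cells. The median log2 ratio over all measured genes was 0.10.

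Among the higher genes, 9 of 29 were expressed at least as strongly in the members as in the other CIA cells. Gpihbp1, which carries lipoprotein lipase to the capillary lumen, had 1053 UMIs in CIA and 639 in control members, or 160 and 61.8 CPM, a ratio of 2.58 (2.34 to 2.85). It had a UMI in 35.9% of CIA and 24.2% of control members, against 0.773% and 0.989% of Lyz2-high cells. Within cluster 2, the one with capillary genes, the level was 454 CPM in CIA and 341 CPM in control cells, and within the arterial-like cluster 5 it was 193 and 22.1 CPM. Btnl9, a butyrophilin-like gene found in capillary and arterial cells, had 53.5 and 18.8 CPM (ratio 2.85, 2.39 to 3.42), with a UMI in 24.8% and 13.9% of members and in 0.451% and 0.360% of Lyz2-high cells.

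Lrrn3, a leucine-rich repeat membrane protein, had 28.7 CPM in CIA and 12.4 CPM in control members (ratio 2.31, 1.84 to 2.92). Nxph1, a neurexophilin, had 24.9 and 12.3 CPM (2.02, 1.60 to 2.57), and was among the genes that marked arterial cells. The START-domain gene Stard8 (13.5 and 5.998 CPM) and the phospholipase C-like gene Plcl2 (10.01 and 3.97 CPM) had ratios of 2.25 (1.61 to 3.16) and 2.52 (1.68 to 3.82). Esm1, the endocan gene of tip cells, had 93 UMIs in CIA and 59 in control members (14.1 and 5.71 CPM; ratio 2.47, 1.76 to 3.49), in 6.28% and 2.61% of the cells. These are small counts, and without cluster 6 Nxph1, Stard8 and Esm1 no longer passed the size rule, with log2 ratios of 0.80, 0.99 and 1.02, while Plcl2 (1.45) fell under 100 UMIs. In the members that were not venous, the log2 ratio of Gpihbp1 was 0.93 and that of Btnl9 1.11, and of the 7 genes named here only Btnl9 passed, while Plcl2 and Stard8 had under 100 UMIs.

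The other 20 higher genes were at lower levels in the members than in the other CIA cells. The haemoglobin genes Hba-a2 (125 and 33.3 CPM) and Hbb (78.7 and 26.6 CPM) had ratios of 3.75 and 2.96, but 1 cell held 91.8% and 89.2% of their CIA UMIs. Without the cell of most UMIs in each library, their log2 ratios were −1.38 and −1.43. Mmp9, a protease of osteoclasts and neutrophils, had 29.1 and 13.6 CPM in members (ratio 2.13) against 279 and 68.7 CPM in other cells (ratio 4.06). Lyz2 had 1583 and 823 CPM in members and 30455 and 17313 CPM in the other cells. Over the macrophage list, 0.195% of CIA and 0.105% of control member UMIs were counted, against 3.58% and 2.07% in the other cells. The part of such RNA in these ratios was not tested.

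**Figure D4:**
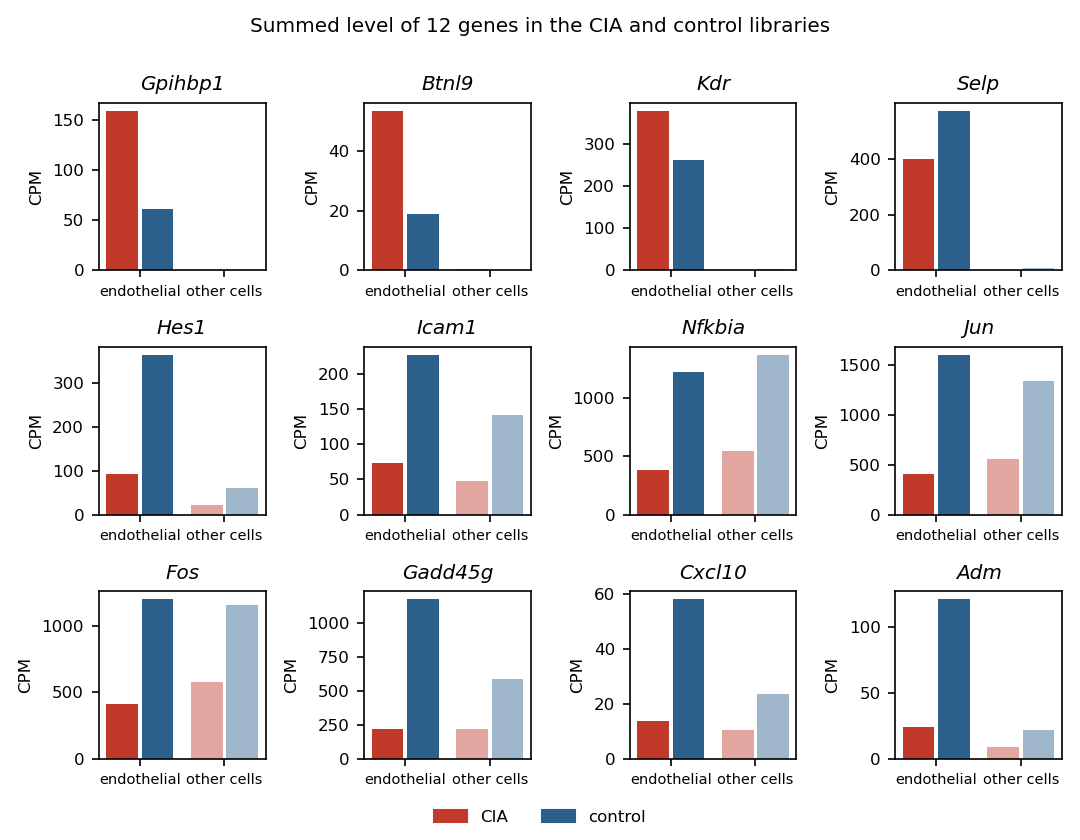
Summed level (CPM) of 12 genes in the endothelial cells and in all other kept cells (pale) of the CIA (red) and control (blue) library, each panel on its own axis from 0. Gpihbp1 and Btnl9 are higher in CIA endothelial cells by the size rule and near 0 elsewhere, Kdr (ratio 1.45) and Selp (0.698) do not pass the rule, and the 8 remaining genes pass it as lower in CIA endothelial cells and also have a ratio below 1 in the other cells.

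Among the listed genes, the smallest ratios were those of genes known from cartilage, red cells and bone, such as Chad, Col2a1, Ahsp and Ibsp (0.00204, 0.0165, 0.0263 and 0.0284). Ahsp no longer passed the size rule with at least 10 marker UMIs, without cycling cells or in venous members. Ibsp no longer passed in members that were not venous. Both still passed without the cell of most UMIs of each gene in each library. The genes described next were at least as high in the control members as in the other control cells. Gadd45g, a stress-inducible growth-arrest gene, had 221 CPM in CIA and 1175 CPM in control members (ratio 0.188, 0.178 to 0.199), with a median per cell of 132 and 524 CPM. Ppp1r15a, which restarts translation after stress, had 53.7 and 267 CPM (0.201). Adm, the vasodilator peptide adrenomedullin, had 24.4 and 121 CPM (0.202, 0.170 to 0.238) and a UMI in 12.7% and 34.3% of members, while its receptor genes Calcrl and Ramp2 had ratios of 1.02 and 1.13. In the other kept cells, Gadd45g had 223 and 586 CPM, Ppp1r15a 99.8 and 248 CPM, and Adm 8.80 and 21.5 CPM, so all 3 had ratios below 1 there too. Csf2, the cytokine GM-CSF, had 12 UMIs in CIA and 176 in control members (1.82 and 17.03 CPM; 0.107, 0.0542 to 0.191), and other kept cells had 0.745 and 0.431 CPM, a ratio above 1. Csf2 had under 100 UMIs without cluster 6 (log2 ratio −2.59) and in members that were not venous (−2.89), where it could not be called. Of the other named genes, Socs3, an inhibitor of cytokine receptors, had a ratio of 0.247 and the nicotinic-acid receptor gene Hcar2 0.251.

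Immediate-early genes, which cells switch on within minutes of a stimulus, were lower as a group. Of 22 measured, 17 were lower, 0 were higher and all 22 had a ratio below 1, with a median log2 ratio of −1.63 against 0.10 over all measured genes. The share of lower genes over all measured genes was 1.68%. Jun, a subunit of the AP-1 factor, had 406 CPM in CIA and 1598 CPM in control members (ratio 0.254, 0.244 to 0.265), and its partner Fos had 408 and 1199 CPM (0.341, 0.327 to 0.355). The middle 50% of Jun levels per cell was 71.1 to 499 CPM in CIA and 277 to 1685 CPM in control. Atf3 had 87.5 and 548 CPM (0.160), and Zfp36, which degrades inflammatory mRNAs, 298 and 1128 CPM (0.264). In the other kept cells, 12 of these genes were lower by the size rule, against 4.1% of all genes measured there. The median log2 ratio of the 22 was −1.01 in those cells, with Jun at 558 and 1341 CPM and Fos at 578 and 1158 CPM. With 1 library per group, the treatment and the library cannot be told apart.

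Cluster 6 bore on these counts. Without it, 10 of 21 immediate-early genes were lower. Over all measured genes, 97 of 8430 were lower in place of 148 of 8784 (88 shared), and 18 were higher in place of 29. This cluster was itself formed on such genes, and its Jun level was 3348 CPM in its 145 control cells. In the other clusters, Jun was lower in CIA cells as well: 298 CPM in CIA and 688 CPM in control cells of the venous-like cluster 4, 442 and 1045 CPM in the arterial-like cluster 5, and 604 and 1350 CPM in cluster 2. Without cluster 6, Jun had a log2 ratio of −1.29, Zfp36 of −1.12 and Atf3 of −1.79, which passed the size rule, and Fos had −0.86 and Egr1 −0.82, which did not.

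Of 14 NF-kB target genes, 4 were lower and 0 higher, at a median log2 ratio of −0.09. Among all measured genes, 1.68% were lower. The 4 were Nfkbia, the inhibitor that NF-kB itself induces (381 CPM in CIA and 1226 CPM in control members, ratio 0.311), Tnfaip3, the A20 brake on the pathway (2.88 and 15.2 CPM, 0.190), Nfkbiz (28.5 and 86.8 CPM, 0.329) and Irf1 (42.2 and 124 CPM, 0.341). The subunit genes did not follow: Nfkb1, Nfkb2, Rela and Relb had ratios of 1.26, 1.16, 1.15 and 1.20. Other kept cells had Nfkbia at 550 and 1370 CPM and Tnfaip3 at 7.50 and 19.99 CPM. Without cluster 6, only Nfkbia of 13 measured targets was lower, at a log2 ratio of −1.11.

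Promoters are shown for 3 of the lower genes, because their windows hold a match to the motif for which their list is known. The RefSeq table of build GRCr8 gave 250 bases before to 50 after the start of each gene. Both strands were searched for the consensus of NF-kB and for the CArG box of serum response factor, and no match of one overlapped a match of the other. The bases before the start are printed 5′ to 3′ on the gene's strand, with matches in capitals. The printed 250 bases are, for Nfkbia, chr6:78597073-78597322 on the minus strand, for Tnfaip3, chr1:15543980-15544229 on the minus strand and, for Zfp36, chr1:92799109-92799358 on the minus strand.
Nfkbia: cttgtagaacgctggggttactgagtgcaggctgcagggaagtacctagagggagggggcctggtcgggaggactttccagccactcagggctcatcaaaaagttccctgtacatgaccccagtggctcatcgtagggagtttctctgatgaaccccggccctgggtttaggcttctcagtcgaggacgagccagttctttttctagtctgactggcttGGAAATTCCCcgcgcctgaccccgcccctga
Tnfaip3: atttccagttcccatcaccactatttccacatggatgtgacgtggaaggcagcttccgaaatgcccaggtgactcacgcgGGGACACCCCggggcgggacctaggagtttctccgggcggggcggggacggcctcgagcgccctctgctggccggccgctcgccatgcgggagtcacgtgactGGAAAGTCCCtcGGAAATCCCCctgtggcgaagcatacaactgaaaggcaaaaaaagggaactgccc
Zfp36: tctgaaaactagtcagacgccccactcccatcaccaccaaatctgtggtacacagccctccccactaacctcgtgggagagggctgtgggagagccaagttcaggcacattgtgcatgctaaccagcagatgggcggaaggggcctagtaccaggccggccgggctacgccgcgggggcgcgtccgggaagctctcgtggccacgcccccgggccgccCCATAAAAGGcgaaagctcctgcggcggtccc
The NF-kB match of Nfkbia begins 31 bases before the start and the CArG match of Zfp36 begins 32 bases before it. Tnfaip3 has 3 NF-kB matches, beginning 170, 67 and 55 bases before the start. The NF-kB consensus was found in the windows of all 4 lower genes of the NF-kB list, against 1142 of all 27457 promoters (4.16%). The CArG box was found in 4 of the 13 lower immediate-early genes that had a window (30.8%), which were Egr1, Egr2, Klf6 and Zfp36, against 451 of all promoters (1.64%). Icam1 and Sele, also known as NF-kB targets, had no exact match to either motif in their windows. Sites that depart from the consensus in any base were not counted, so this does not show that such sites are absent. Both lists are known for these motifs, and matches were not counted in their genes that were not lower. The shares therefore do not tie a motif to being lower. A match describes the letters, not a bound site.

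Among genes for leukocyte adhesion, 1 of 15 was lower and 0 were higher, so only Icam1 passed. The share of lower genes among all measured genes was 1.68%. Icam1, the receptor for leukocyte integrins, had 73.6 CPM in CIA and 227 CPM in control members (ratio 0.324, 0.294 to 0.358) and 47.7 and 141 CPM in other cells. In venous cells alone it had 152 and 332 CPM, a ratio of 0.456 (0.405 to 0.513), and without cluster 6 its log2 ratio was −1.12. Vcam1, another integrin receptor, had 62.0 and 68.0 CPM (0.912), Icam2 419 and 370 CPM (1.13) and Madcam1 8.19 and 14.6 CPM (0.561, 0.403 to 0.770), none of which passed the rule.

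Of 16 chemokine and cytokine genes, 5 were lower and 0 higher, against 1.68% lower among all measured genes. The neutrophil chemokine Cxcl1 had 113 CPM in CIA and 456 CPM in control members (0.249, 0.230 to 0.269), and a UMI in 28.7% and 58.3% of the cells. Cxcl10, an interferon-inducible chemokine for T cells, had 13.8 and 57.9 CPM (0.238), Il6 9.25 and 29.8 CPM (0.311), Il1b 22.6 and 47.4 CPM (0.477) and the nuclear alarmin Il33 19.4 and 42.6 CPM (0.456). Other kept cells had Cxcl1 at 287 and 512 CPM, Il1b at 47.4 and 104 CPM and Il6 at 24.3 and 29.1 CPM. Single cells held 29.5% of the CIA and 22.1% of the control UMIs of Il6, which no longer passed the size rule without cluster 6 (log2 ratio −0.74). Of 18 interferon-response genes 1 was lower, Irf1, with Gbp2 and Ifit2 at ratios of 1.07 and 1.28. Antigen-presentation genes had 0 of 10 past the rule, with B2m at 3462 CPM in CIA and 3277 CPM in control members.

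Receptors of the vascular growth pathways lay above 1 but under the size rule. In the list of VEGF and angiopoietin signalling, 1 of 17 genes was lower, Adm, and 0 were higher. The median log2 ratio of the list was 0.23, against 0.10 over all measured genes. Among all measured genes, 1.68% were lower. Kdr had a ratio of 1.45 (1.37 to 1.53), the decoy receptor Flt1 1.37, the angiopoietin receptor gene Tek 1.21, its partner Tie1 1.44, and Aplnr 1.55 (1.48 to 1.63). The ligand Angpt2, with which tip cells loosen vessels, had 48.7 CPM in CIA and 49.0 CPM in control members (0.993). In the Notch list, Hes1, a target gene of the pathway, was the 1 of 9 lower, with 93.4 and 364 CPM (0.257, 0.236 to 0.280). The receptors and ligands did not go with it: Notch1 had a ratio of 1.57, Notch4 1.38, Dll4 1.27 and Jag1 1.33. Hes1 also had 21.3 and 59.8 CPM in the other cells. In the TGF-beta and BMP list, Id2 was the 1 of 13 lower (13.2 and 30.5 CPM, 0.433), and Id1 and Id3, its relatives in BMP response, had 0.723 and 0.725.

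Genes for matrix, junctions and caveolae stayed under the size rule, by which 1.68% of all measured genes were lower and 0.33% higher. Of 21 genes for basement membrane and matrix, 0 passed the size rule and 18 had a ratio of 1 or more. The median log2 ratio of the 21 was 0.32, against 0.10 over all measured genes. Col4a1, the main collagen of vessel basement membrane, had 5076 CPM in CIA and 3470 CPM in control members (1.46, 1.44 to 1.48), and Nid2, which links it to laminin, 154 and 82.2 CPM (1.87, 1.71 to 2.06). Lamb1 and Lama4 had ratios of 1.43 and 1.44. None of 10 junction genes, 7 caveola genes, 12 arterial, 8 venous or 15 cycling genes passed, with median log2 ratios of 0.36, 0.11, 0.43, −0.05 and 0.18. The nitric oxide synthase Nos3 had a ratio of 1.34, and in the list of coagulation and vascular tone 3 of 16 were lower: the vasoconstrictor endothelin gene Edn1 (7.58 and 16.9 CPM), Plau (9.40 and 21.3 CPM) and Ptgs2 (3.03 and 7.93 CPM). Of 9 heat-shock genes 4 were lower, with the small chaperone Hspb1 at 1321 CPM in CIA and 2848 CPM in control members (0.464) and Dnajb1 at 40.9 and 169 CPM (0.242), and other cells had Hspb1 at 516 and 1380 CPM. Without cluster 6, none of the 3 genes of coagulation and tone passed: Edn1 had a log2 ratio of −0.79 and Plau −0.90, and Ptgs2 (−1.17) had under 100 UMIs. Of the 4 heat-shock genes, Hspb1 (−0.64), Hsph1 (−0.43) and Bag3 (−0.35) no longer passed either.

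**Figure D5:**
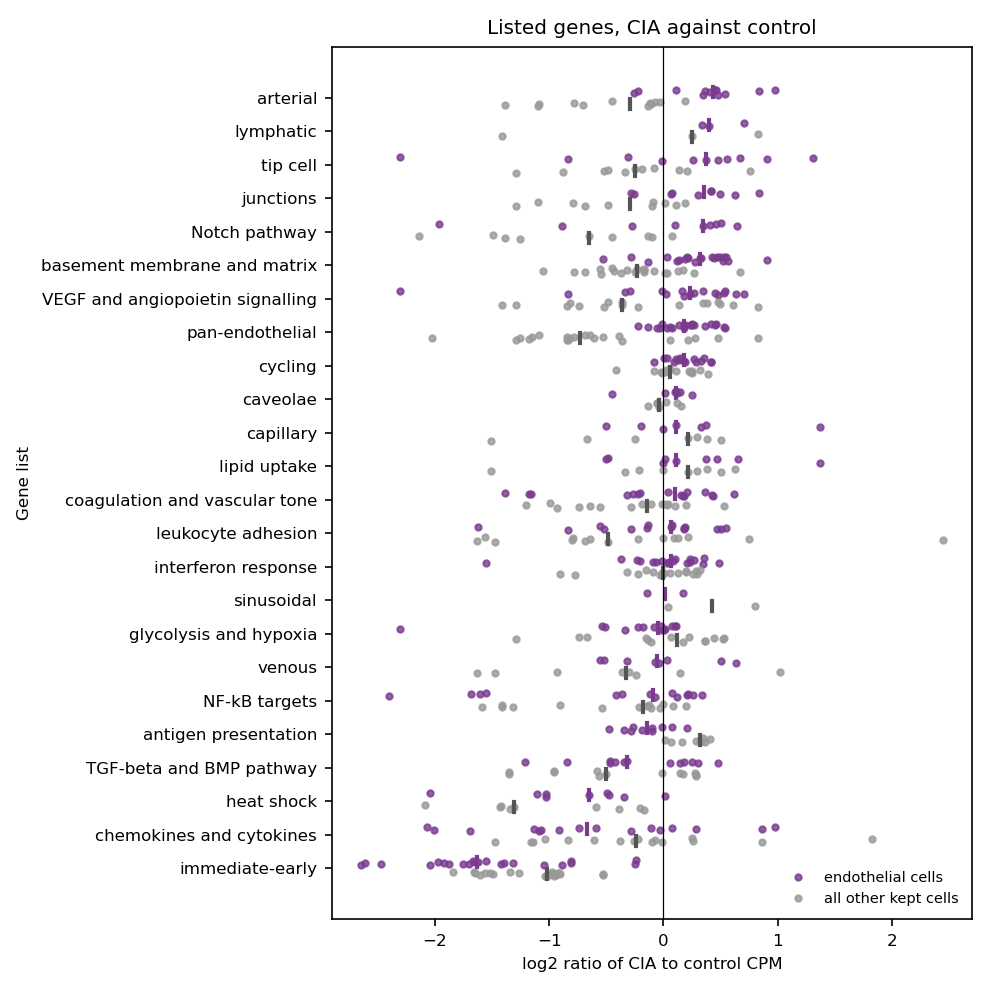
Log2 ratio of CIA to control CPM for each measured gene of 24 lists in the endothelial cells (purple) and in all other kept cells (grey), with bars at the medians. The immediate-early list lies lowest in the endothelial cells, at a median of −1.63 there and −1.01 in the other cells, and most other medians lie within 0.5 of 0.

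RNA typical of other cell types also differed between the members of the libraries. All 6 measured chondrocyte genes were lower in CIA members, and 5 of them in the other kept cells. Over all measured genes, 1.68% were lower in the members and 4.1% in the other kept cells. Col2a1 had 5.31 CPM in CIA and 321 CPM in control members, and Chad 2 UMIs against 1537, a ratio of 0.00204 (0.000247 to 0.00738). Other kept cells had Col2a1 at 61.3 and 1292 CPM. In sum this list was 0.00452% of CIA and 0.0699% of control member UMIs, with a median per member of 0 and 0.0258%. The fibroblast list was 0.676% and 0.629%. The list of pericytes and smooth muscle was 0.00778% and 0.00961%, and 4 of its 6 measured genes had a ratio below 1. Among them Rgs5 was lower (43 UMIs in CIA and 197 in control members), but 1 cell held 41.9% of its CIA UMIs and 1 cell 45.7% of its control UMIs. Members in which a single list passed 1% of UMIs numbered, for fibroblast genes, 25 in CIA and 36 in control. For chondrocyte genes they numbered 0 in CIA and 9 in control, where the highest reached 5.85%. The highest share in a single member was 18.3% in CIA and 14.2% in control for fibroblast genes, and 7.16% and 30.9% for neutrophil genes. For erythroid genes it was 16.7% and 2.21%, and for lining genes 6.61% and 5.83%. Cluster 0 held 1161 UMIs of Chad and the other clusters 378. What these traces add to other ratios was not tested.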

How the data were processed

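Per the labels' protocols, cartilage was dissociated with a warmed enzyme and libraries were made with a Chromium 3' kit. The values deposited by the authors are raw UMI counts per gene and cell, 1 matrix per library. The build mRatBN7.2 comes from the submitters' processing notes, and no source used here names the aligner or the strand setting. The libraries held 105752977 UMIs in 8622 CIA barcodes and 76927821 UMIs in 5456 control barcodes. Mitochondrial UMIs over 20% removed 47 and 45 cells, and Scrublet calls removed 166 and 62. The 18147 genes listed for both libraries were compared; the 1103 listed only for CIA and 1579 only for control were set aside. CPM ratios carry exact conditional 95% intervals on summed counts, and shares exact binomial (Clopper-Pearson) ones. The members and gene lists were chosen with earlier results of these data known. Named genes were the markers, list members past the size rule, and up to 12 per direction of largest ratio that were at least as high as in other cells and found in 10% of members. Clustering used 2000 variable genes, 30 components, 15 neighbours and resolution 0.5. Lyz2-high cells had at least 20000 CPM of Lyz2 and fewer than 5 UMIs summed over Emcn, Plvap and Cdh5. The calling was tested on simulated sums which, apart from genes set to differ, held counting error only. They had no clumping of UMIs in single cells and no library effect, so errors of that kind could not show. Tools were Python 3.11.15, numpy 2.4.6, scipy 1.17.1, pandas 2.3.3, matplotlib 3.10.9, scanpy 1.11.5, python-igraph 0.11.9, scikit-learn 1.9.0, anndata 0.12.19, and edgeR 4.0.16 in R 4.3.3 for TMM factors only. Alternatives covered scaling, marker limits, doublets, mitochondrial limit, minimum UMIs and subsets of members.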

Additional observations from a re-analysis of the deposited data

Results flagged for a closer look

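The haemoglobin gene listed as Hba-a2 had a CIA to control ratio of 0.380 in venous members and 3.62 in members that were not venous. The same symbol on another row (a near-identical copy, so that reads may be split between them) had 0.470 in venous members and 4.74 in the others. The unnamed gene LOC103694857 had a ratio of 4.70 in endothelial cells and 0.498 in all other kept cells, and 1 cell held 94.8% of its UMIs in CIA members. Each was listed because it passed the size rule as higher in 1 of the compared groups of cells and as lower in the other. The differences themselves were not tested.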

How the results depend on the processing

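No paired analysis was possible because each group is 1 library and the labels give no replicate numbers. Counts of genes by the size rule ranged with the setting. Higher genes numbered 55 of 9150 measured with at least 3 marker UMIs. They numbered 13 of 6775 in venous members, 17 of 7300 in members that were not venous and 18 of 8430 without cluster 6. Without the cell of most UMIs per gene and library, 19 of 8784 were higher. Lower genes numbered 225 of 11520 with a minimum of 20 UMIs and 97 of 8430 without cluster 6. TMM factors gave 25 higher and 161 lower, at a median log2 ratio of 0.02. Of 62 named genes past the size rule, between 58 and 62 still passed under changes of scaling, marker limits, doublet, Lyz2 or mitochondrial limits and minimum UMIs, 60 without the top cell, 58 without clusters 0 and 7, 53 by the mean of per-cell CPM, 52 without cycling cells, 43 of 61 in venous members, 46 in members that were not venous and 40 without cluster 6. Log2 ratios changed sign for Hba-a2 and Hbb, to −0.46 and −1.24 without cycling cells, −1.39 and −1.06 in venous members and −1.38 and −1.43 without the top cell, and for Rgs5, to 2.30 in venous members. The top-cell setting left out, for each gene, 1 cell of each library. The cause of these changes of sign was not tested. After thinning, the CIA share was 6.01%, over the 7987 kept CIA cells deep enough to thin. The control share was 11.96% with at least 10 marker UMIs, 14.5% with at least 3 and 11.9% without clusters 0 and 7. Unthinned, the venous, arterial and cycling shares were 29.8%, 27.5% and 16.0% in CIA and 47.7%, 16.5% and 16.5% in control members. With higher UMI limits the venous and arterial shares were 18.4% and 13.8% in CIA, and the venous, arterial and cycling shares 27.1%, 8.41% and 8.12% in control members. The order of the venous and of the arterial shares held in each of these settings. Settings that leave out clusters were chosen after seeing the data. Depth limits genes of few UMIs, such as Esm1 and Csf2, and 1 library per group limits every comparison.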
